A study of Mus musculus with 9 samples.

Results

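The genes described here are 10 components of the Notch pathway, taken by symbol from the gene counts of embryonic mouse lenses. They are the receptors Notch1, Notch2 and Notch3, the ligands Jag1, Jag2 and Dll1, the DNA-binding effector Rbpj, and the target genes Hes1, Hes5 and Hey1. The counts list 55416 gene identifiers, 14903 of which carried enough reads to be tested, and 10 of the 10 Notch genes were among those tested. Lenses were dissected at E16.5 from embryos of Atf4+/- intercrosses, and each library held the RNA of 1 pair of lenses from 1 embryo. The 4 Atf4 null libraries came from embryos homozygous for the germline allele Atf4tm1Tow, in which a neomycin phosphotransferase cassette replaces coding sequence of Atf4, so that every cell of the embryo lacks the gene. The 5 wildtype libraries came from littermates, and both groups had a mixed C57Bl/6/129 background. ATF4 is a transcription factor of the integrated stress response and amino acid supply, and the comparison asked which lens transcripts depend on it.

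Notch signalling passes between touching cells. A Jagged or Delta-like ligand on 1 cell pulls on a Notch receptor of its neighbour, the receptor is cut by ADAM10 and then by gamma-secretase, and the freed intracellular domain joins RBPJ and a Mastermind-like coactivator to switch on HES and HEY repressors. In the lens, JAG1 is displayed mainly by young fiber cells and acts on Notch receptors of the epithelium, which keeps epithelial cells dividing and lets fibers form in order. The same genes serve other tissues next to the lens: DLL1, HES1 and HES5 hold retinal progenitors, NOTCH1, NOTCH4 and DLL4 act in endothelium, and NOTCH3 marks pericytes.

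The letters that RBPJ binds, TGGGAA, are shown for the 4 Notch genes that carry them, because Hes1, Hes5 and Hey1 are the transcripts by which the pathway's output is usually read. The window searched on GRCm39 ran from 250 bases before to 50 bases after the start of the canonical transcript, on both strands. Each line gives 30 bases in the direction of the gene, with the matched letters in capitals, and TTCCCA is the match on the other strand.
Hes1, 49 bases before the start: tgaaagttactgTGGGAAagaaagtttggg
Hes1, 35 bases before the start: ggaaagaaagttTGGGAAgtttcacacgag
Hes5, 219 bases before the start: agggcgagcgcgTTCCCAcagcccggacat
Hes5, 75 bases before the start: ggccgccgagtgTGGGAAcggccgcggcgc
Hey1, 175 bases before the start: ggcgccggcactTTCCCAcggcccgcggcg
Rbpj, 190 bases before the start: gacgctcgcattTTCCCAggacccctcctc
The Hes1 windows lie at chr16:29884066-29884095 and chr16:29884080-29884109 on the plus strand and overlap, and the Hes5 windows lie at chr4:155045142-155045171 and chr4:155045286-155045315 on the plus strand. The Hey1 window is chr3:8732474-8732503 on the minus strand, and the Rbpj window is chr5:53747611-53747640 on the plus strand. TGGGAA occurred in 25.9% of the same windows of 21627 protein-coding genes, and 4.12% held 2 or more matches, as those of Hes1 and Hes5 did. The longer form CGTGGGAA, which includes the shorter one, occurred in 0.865% of windows and, of the 10 Notch genes, in Hey1 alone. The amino acid response element read by ATF4 dimers, searched as TGATGCAA, occurred in 0.994% of windows and in 0 of these 10. A match is a description of letters in a window and was not tested as a binding site.

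**Figure D1:**
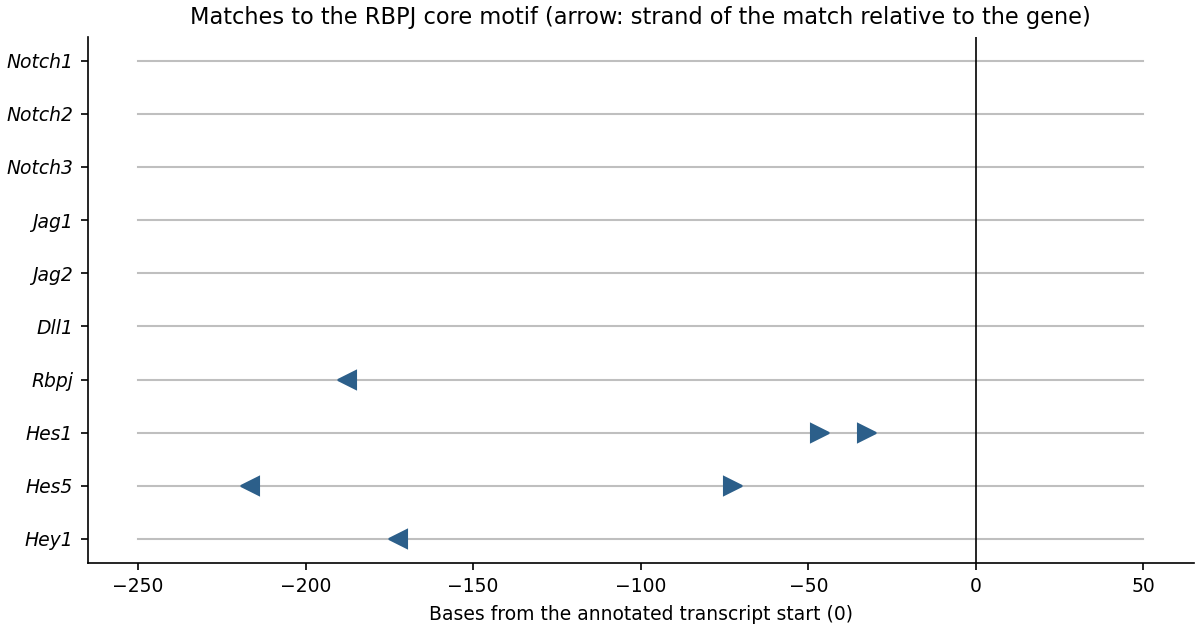
Positions of TGGGAA on either strand in the window around the annotated start of each of the 10 Notch genes; the x axis is the distance in bases from the start (0), and arrows give the strand relative to the gene. Hes1 and Hes5 each hold 2 matches, Hey1 and Rbpj 1 each, and the other 6 genes none.

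Libraries held between 7440807 and 8906996 reads counted to genes. Levels are given in CPM, reads per 1e+06 gene reads, after TMM scaling, which corrects for a few abundant transcripts taking up reads. Atf4 itself was at 0.582 to 10.6 CPM in the null libraries and 119 to 155 CPM in wildtype, without overlap, which checks the genotype labels. Lens fiber markers summed to 40172 CPM or more in every library, although Lim2 of that list had 0 reads in all of them, and the libraries differed in neighbouring tissue. The summed level of 18 neural retina markers was 1172, 676, 746 and 379 CPM in null replicates 1 to 4, and 254 to 402 CPM in wildtype. Null replicate 4 was thus within the wildtype range and the other null libraries above it; all 18 markers were fitted higher in null, 6 of them passed the edgeR test, and none was at 0. Summed vascular endothelium markers were 319 to 584 CPM in null and 493 to 892 CPM in wildtype. All 12 were fitted lower in null, with a median log2 fold change of -0.64, and 1 passed. Summed pericyte and mural cell markers were 164 to 246 CPM in null and 203 to 680.4 CPM in wildtype, with 7 of 8 fitted lower and 1 higher. Of these, 2 passed as lower and 1 as higher. Wildtype replicate 5 stood apart, with 4325 CPM of skeletal muscle markers against 15.8 to 28.6 CPM in the other wildtype libraries, and 53017 CPM of lens fiber markers against 90581 to 96871 CPM. In bulk RNA, fewer cells of a type and less RNA per cell cannot be told apart. The p-values measure the spread between these libraries, each from a different embryo.

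No Notch gene passed the test between genotypes. With the quasi-likelihood test of edgeR, adjusted over all genes tested by the Benjamini-Hochberg method with a threshold of 0.05, 0 of the 10 genes were called, where 5.9% of all tested genes were called (880 of 14903; 2.23% higher and 3.67% lower in null). DESeq2 called 1 of the 10, Hes1, and 9.37% of all genes. Scaling by library size alone called 2, Hes1 and Jag1, and 8.25% of all genes. At an unadjusted p below 0.05, edgeR listed 4 of the 10 (Hes1, Dll1, Jag1 and Notch2), against 19.6% of all genes. Groups did not overlap for 1 of the 10, Hes1, against 10.2% of all genes. Fitted changes were above 0 for 7 genes and below 0 for Notch2, Notch3 and Hey1, and 50.1% of all genes were above 0. The median log2 fold change over the 10 was 0.28, beside 0.001 over all genes.

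**Figure D2:**
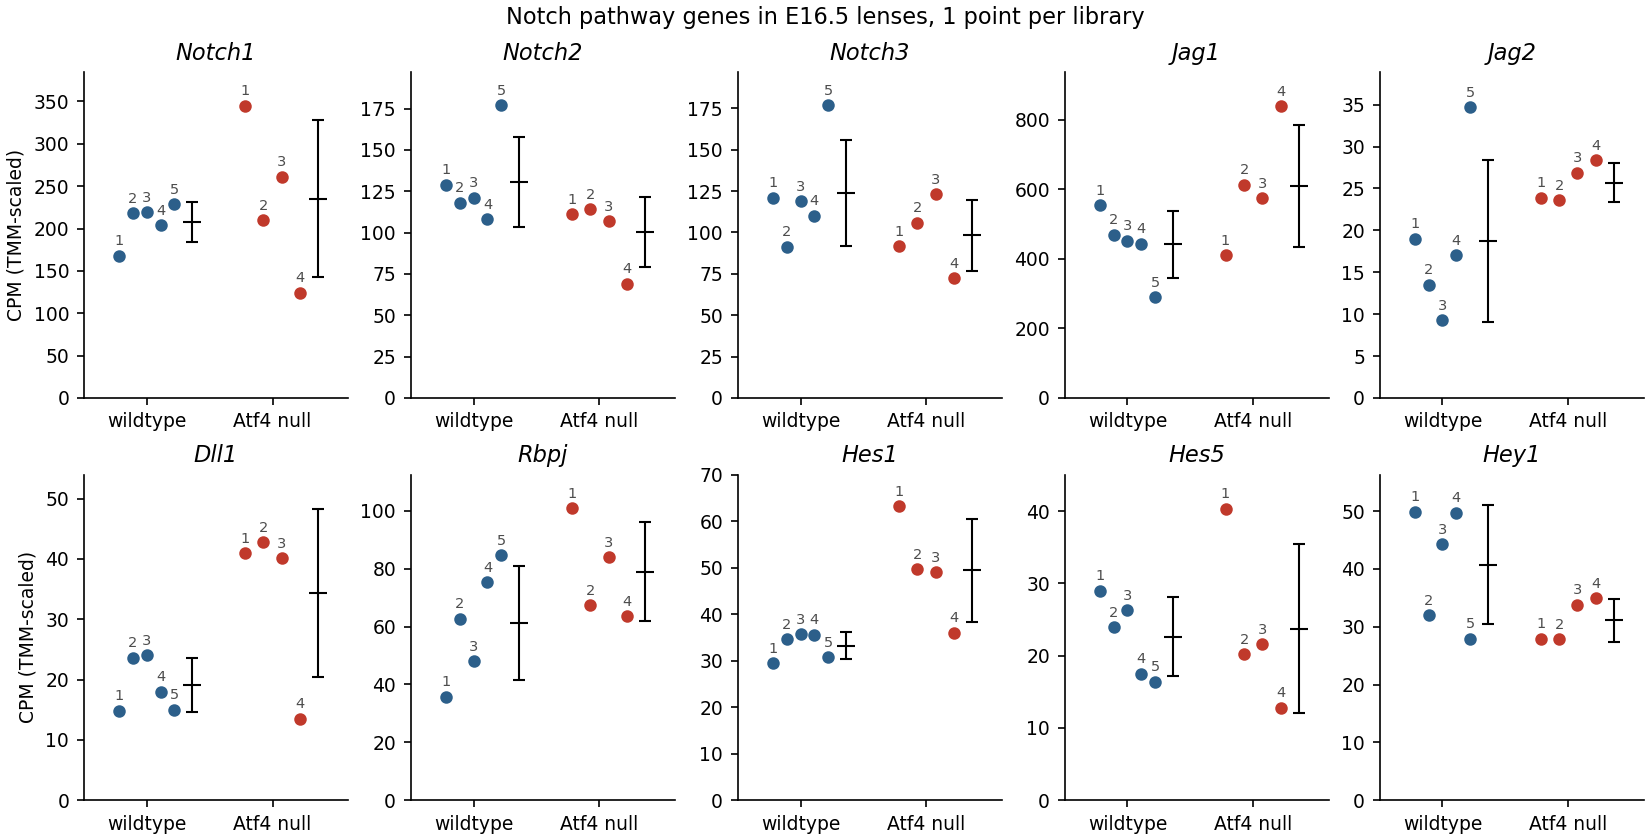
CPM of the 10 Notch genes (y axis, from 0) in each of the 5 wildtype libraries (blue) and 4 Atf4 null libraries (red), with replicate numbers; the bars are the mean ± SD. Hes1 alone has every null library above every wildtype library, and Dll1 has 3 null libraries near 40 to 43 CPM and 1 at 13.5 CPM.

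Jag1 was the most abundant of the 10 transcripts. Compared per kilobase of exon (FPKM, from the CPM and the summed exon length), its wildtype level was 74.1 ± 16.2 (SD, n = 5), followed by Hes5, whose 5 wildtype libraries ran from 12 to 21.2, Notch1 at 14.6 ± 1.69, Notch3 at 13.7 ± 3.56 and Notch2 at 11.6 ± 2.4. Then came Hes1 at 9.85 ± 0.847, Hey1 at 8.5 ± 2.13, Rbpj at 4.77 ± 1.54, Dll1 at 3.84 ± 0.905 and Jag2 at 2.63 ± 1.37 FPKM. Only the first step in this order, from Jag1 to Hes5, separated the wildtype libraries without overlap. Every other neighbouring pair overlapped, so the order from Hes5 down to Jag2 is one of means only.

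**Figure D3:**
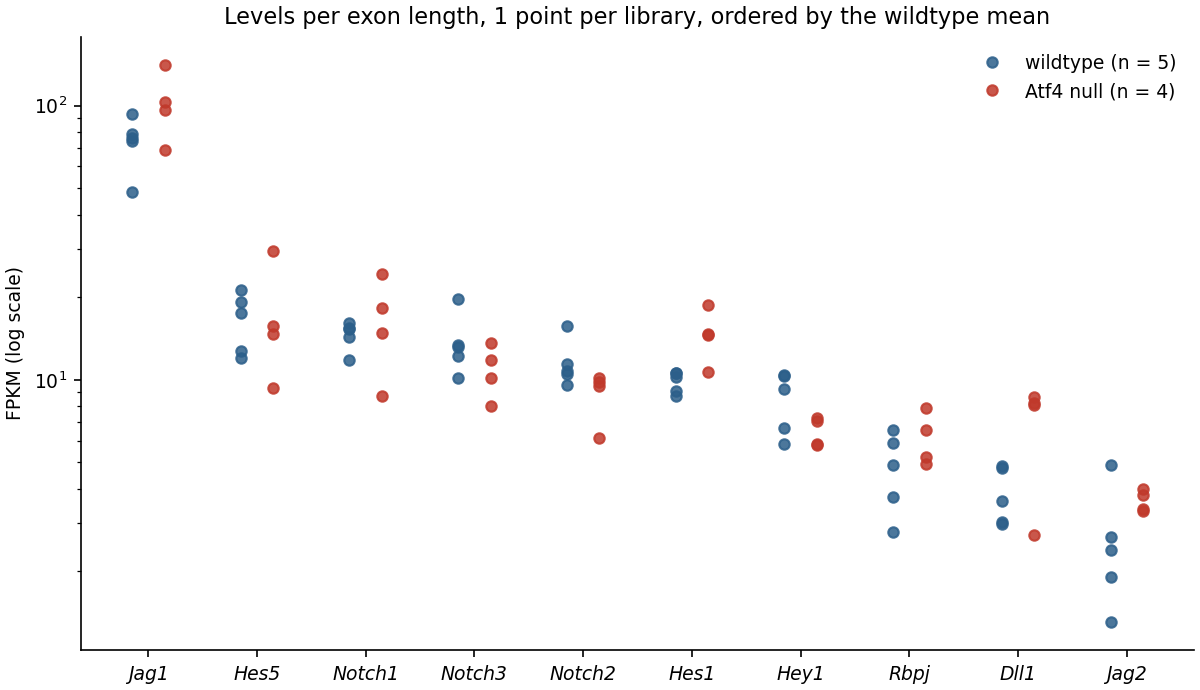
FPKM on a log axis for each wildtype (blue) and Atf4 null (red) library, with genes ordered by their wildtype mean. Jag1 lies above the other 9 genes in wildtype, and its null mean is 102 FPKM.

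Notch1 varied more among the null lenses than between genotypes. Its gene lies on chromosome 2 (ENSMUSG00000026923, 26347915 to 26406675, minus strand). It was at 345, 210, 261 and 124 CPM in null replicates 1 to 4 and at 168, 218, 219, 204 and 229 CPM in wildtype replicates 1 to 5. The null libraries thus held both the highest and the lowest value of the series, in replicates 1 and 4. Among the nulls, these also had the highest and the lowest retinal marker sum, and the lowest and the highest lens fiber marker sum. The log2 fold change was 0.18 (95% interval -0.29 to 0.66, adjusted p = 0.731, edgeR), and it was -0.06 without null replicate 1. The part of retinal or fiber RNA in this spread was not tested.

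Notch2 and Notch3 were fitted lower in null lenses, and neither passed the test. Notch2 (ENSMUSG00000027878, chromosome 3, 97920800 to 98057677, plus strand) was at 111, 114, 107 and 69.2 CPM in null and at 129, 118, 121, 108 and 177 CPM in wildtype. Means were 100.3 ± 20.9 (SD, n = 4) and 131 ± 27.1 (SD, n = 5), and 2 null libraries lay below every wildtype library. The log2 fold change was -0.38 (SE 0.17, interval -0.75 to -0.01, adjusted p = 0.245, edgeR). An exact permutation test over all ways to split the libraries into 4 and 5, two-sided, gave p = 0.04 for n = 4 and 5. That p rose to as much as 0.21 when 1 library was left out, the case without null replicate 4.

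Notch3 (ENSMUSG00000038146, chromosome 17, 32339794 to 32385893, minus strand), the receptor of mural cells, was at 91.7, 106, 123 and 72.2 CPM in null and at 121, 91.4, 119, 110.2 and 177 CPM in wildtype. The groups overlapped widely, with 1 null library below every wildtype library. Its fitted change was -0.33 on the log2 scale (interval -0.74 to 0.08, adjusted p = 0.383, edgeR). Wildtype replicate 5, the highest for both Notch2 and Notch3, also had the highest sums of endothelial and pericyte markers. It stood out further for mesenchyme markers, at 14223 CPM against 40.8 to 92.3 CPM in the other wildtype libraries. The same was true of skeletal muscle markers, at 4325 CPM against 15.8 to 28.6 CPM. The part of vessel, mesenchyme or muscle RNA in these values was not tested.

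With Notch4 included, the receptor transcripts added up to 39.8 ± 10.6 FPKM in null (n = 4) and 43.9 ± 7.41 FPKM in wildtype (n = 5). Notch1 made up 35.3% to 51.5% of that sum in null libraries and 28.2% to 38.4% in wildtype. The Notch2 share was 20.3% to 25.0% in null and 24% to 28.3% in wildtype, and the shares of Notch3 and Notch4 overlapped as well. No receptor share separated the genotypes.

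Jag1, the ligand of young fiber cells and the one whose human mutations cause Alagille syndrome, had a higher mean in null lenses without passing the test. The gene (ENSMUSG00000027276) lies on chromosome 2, 136923373 to 136958693, minus strand. It was at 411, 613, 575 and 839.9 CPM in null and at 555, 469, 452, 444 and 289 CPM in wildtype, means of 609.8 ± 177 (SD, n = 4) and 442 ± 96.3 (SD, n = 5). In 3 of 4 null libraries the level was above every wildtype library, and null replicate 1 was below 4 of the 5. The fold change was 1.38 (interval 1.02 to 1.87; log2 0.46, SE 0.20, adjusted p = 0.225, edgeR). The order of the null libraries for Jag1 was also that of their summed lens fiber markers, which were 40172, 62046, 59483 and 94875 CPM. That order is the exact reverse of the one for their retinal marker sums, 1172, 676, 746 and 379 CPM. Among the null libraries, following fiber markers and running against retinal markers therefore cannot be told apart. Wildtype replicate 5, the lowest wildtype library for Jag1, was the lowest for fiber markers too. Leaving out both null replicate 1 and wildtype replicate 5, a choice made after the data were seen, gave 0.51 on the log2 scale (adjusted p = 0.0188, edgeR). That fit called 1339 genes, beside 880 with all libraries. Over all alternatives the adjusted p ran from 0.0188 to 0.506.

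Jag2 was among the scarcest of the 10. Its gene (ENSMUSG00000002799) lies on chromosome 12, 112871421 to 112893437, minus strand. It was at 23.9, 23.6, 26.9 and 28.4 CPM in null and at 19, 13.5, 9.26, 17 and 34.7 CPM in wildtype. The null libraries lay close together, above 4 wildtype libraries and below wildtype replicate 5. Its fitted change was 0.46 on the log2 scale (interval -0.20 to 1.12, adjusted p = 0.468, edgeR). Without wildtype replicate 5 the change was 0.81 (adjusted p = 0.0468, edgeR), so that 1 library decided this call. That fit called 1207 genes, beside 880 with all libraries.

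Dll1, the Delta-like ligand of retinal progenitors, had the largest fitted change of the 10. Its gene (ENSMUSG00000014773) lies on chromosome 17, 15587276 to 15597134, minus strand. It was at 40.9, 42.8, 40.1 and 13.5 CPM in null and at 14.8, 23.6, 24, 18 and 15 CPM in wildtype, from 93 to 410 reads. The first 3 null libraries were above every wildtype library, and null replicate 4 was below all of them. The fold change was 1.81 (interval 1.15 to 2.83; log2 0.85, SE 0.30), with an adjusted p of 0.125 in edgeR and an exact permutation p of 0.13 (n = 4 and 5). Without null replicate 4, the change was 1.11 on the log2 scale (adjusted p = 0.00796, edgeR), in a fit that called 5.43% of genes. Null replicate 4 was also the null library whose retinal marker sum, 379 CPM, lay within the wildtype range. The part of retinal RNA in the Dll1 values was not tested. Dll1 overlaps Fam120b, a protein-coding gene on the opposite strand with 306 to 496 reads, and the strand setting of the counting is not given in the sources used here. The same limit holds for Notch3, whose antisense neighbour Gm17276 had 4 to 73 reads, Notch1 (0610009E02Rik, 2 to 24 reads) and Hes5 (Gm20421, 0 to 18 reads), while the antisense genes at Rbpj had 0 reads. Notch2 overlaps Gm42819 (19 to 90 reads) and Gm42820 (0 to 27 reads) on its own strand. Reads in any exon they share would be left out as ambiguous under any strand setting.

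Among the ligands Jag1, Jag2, Dll1, Dll3 and Dll4, Jag1 made up 74.1% to 93.1% of the summed level per length in null libraries and 72.8% to 88.6% in wildtype. Dll1 made up 1.8% to 8.85% in null and 2.83% to 5.2% in wildtype. The ligand sum was 121 ± 23.9 FPKM in null and 89.4 ± 14.1 FPKM in wildtype. The make-up of this pool therefore overlapped between genotypes, with Jag1 the main transcript among these ligands in every library. Dlk1, a ligand outside this pool, was at 55.6 FPKM in wildtype replicate 5, where Jag1 was at 48.4 FPKM.

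Rbpj encodes the DNA-binding protein that every Notch receptor acts through. The gene (ENSMUSG00000039191) lies on chromosome 5, 53623494 to 53814704, plus strand. It was at 101, 67.4, 84.1 and 63.6 CPM in null and at 35.8, 62.7, 48, 75.4 and 84.6 CPM in wildtype. Only null replicate 1 was above every wildtype library. The log2 fold change was 0.37 (interval -0.12 to 0.86, adjusted p = 0.42, edgeR). Its processed pseudogenes Rbpj-ps1 and Rbpj-ps3 had 0 and at most 4 reads.

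Hes1, the best known transcriptional target and a repressor that holds progenitors undifferentiated, came closest to a call. Its gene (ENSMUSG00000022528) lies on chromosome 16, 29882134 to 29886643, plus strand, and carries the pair of TGGGAA matches shown above. It was at 63.2, 49.7, 49 and 36 CPM in null and at 29.5, 34.6, 35.7, 35.6 and 30.8 CPM in wildtype, means of 49.5 ± 11.1 (SD, n = 4) and 33.2 ± 2.86 (SD, n = 5). The groups did not overlap, though null replicate 4, at 36, was next to wildtype replicate 3, at 35.7. The fold change was 1.49 (interval 1.15 to 1.92; log2 0.57, SE 0.17, adjusted p = 0.0695, edgeR). The exact two-sided permutation p was 0.0079 (n = 4 and 5), the smallest that these group sizes allow. Over all alternatives the adjusted p ran from 0.0215 to 0.19 and passed in 3, including DESeq2 at 0.0287. The 3 null libraries clearly above wildtype were those with more retinal markers than any wildtype library, and the part of retinal RNA in the Hes1 values was not tested.

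Hes5, another repressor of the same family and a marker of neural progenitors, overlapped widely between genotypes. Its gene (ENSMUSG00000048001) lies on chromosome 4, 155045373 to 155046828, plus strand. It was at 40.3, 20.2, 21.6 and 12.8 CPM in null and at 29, 23.9, 26.3, 17.5 and 16.4 CPM in wildtype. Null replicate 1, with the highest retinal marker sum, had the highest value of all libraries, and null replicate 4 the lowest. Its fitted change was 0.07 on the log2 scale (interval -0.57 to 0.72, adjusted p = 0.935, edgeR), and it was -0.31 without null replicate 1. The order of the null libraries was that of their retinal marker sums, which is also the reverse of that of their lens fiber marker sums. In null replicates 2 and 3, whose retinal sums were above every wildtype library, Hes5 was inside the wildtype range. The part of retinal RNA in the Hes5 values was not tested.

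Hey1, a repressor downstream of Notch in endothelium and other tissues, was fitted lower. The gene (ENSMUSG00000040289) lies on chromosome 3, 8726956 to 8732385, minus strand. It was at 27.9, 27.8, 33.8 and 34.9 CPM in null and at 49.9, 32, 44.3, 49.7 and 27.9 CPM in wildtype. The null libraries lay within a narrow range that wildtype replicates 2 and 5 shared. The log2 fold change was -0.39 (SE 0.20, interval -0.82 to 0.04, adjusted p = 0.313, edgeR). The 3 targets thus had fitted changes of different sign, above 0 for Hes1 and Hes5 and below 0 for Hey1, and the intervals of Hes5 and Hey1 span both directions.

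**Figure D4:**
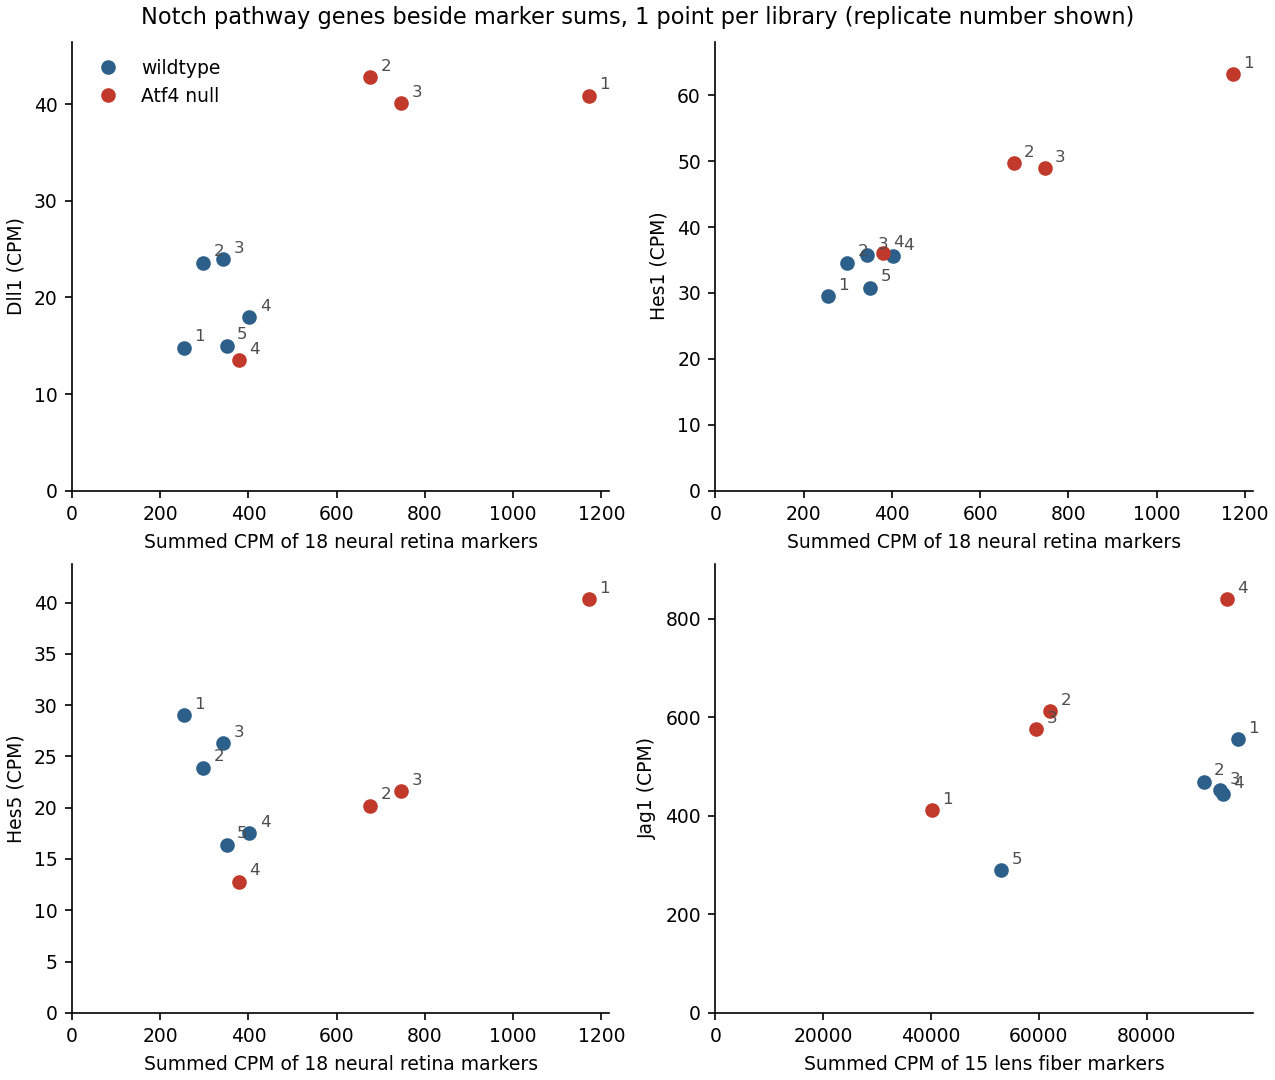
CPM of Dll1, Hes1 and Hes5 against the summed CPM of 18 neural retina markers, and CPM of Jag1 against the summed CPM of the lens fiber markers, 1 point per library with its replicate number (wildtype blue, Atf4 null red). For Hes1, null replicate 4, at 36 CPM, lies just above the highest wildtype library, at 35.7 CPM, with a retinal sum inside the wildtype range, and null libraries lie above wildtype libraries of like fiber marker sum for Jag1.

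The other genes of the pathway were taken from a list of 56 covering receptor processing, ligand handling, the nuclear complex and further targets. Of these, 51 were tested and 3 were called by edgeR, 5.88% beside the 5.9% of all genes. Maml1 and Dtx4 rose and Adam10 fell. The median log2 fold change over the 51 was 0.00, with 25 genes above 0, 25 below and 1 at 0.00 after rounding. The genes named below are those called and the most abundant gene of each role described, by its mean FPKM over all 9 libraries.

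Maml1 encodes a Mastermind-like coactivator that joins the Notch intracellular domain on RBPJ. It was at 69.6, 63.5, 62.3 and 78.9 CPM in null and at 40.7, 39.4, 35.6, 47.2 and 54.2 CPM in wildtype, and the groups did not overlap. It rose by a log2 fold change of 0.66 (SE 0.15, adjusted p = 0.0211, edgeR). The adjusted p was 0.0529 to 0.0597 in 5 of the fits that leave out 1 library, those without null replicate 2 or 4 or wildtype replicate 1, 2 or 3. Snw1, another protein of the nuclear complex, was at 80.6 ± 11.8 CPM in null and 88.1 ± 13.1 CPM in wildtype (adjusted p = 0.702, edgeR).

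Dtx4, a Deltex ubiquitin ligase that binds Notch receptors, was at 170.3, 87.7, 92 and 56.2 CPM in null and at 54.4, 48.6, 49.9, 60.1 and 57.4 CPM in wildtype. Null replicate 4 was inside the wildtype range, and null replicate 1 was the highest of all libraries. It rose by a log2 fold change of 0.91 (SE 0.24, adjusted p = 0.0395, edgeR), which became 0.54 without null replicate 1 (adjusted p = 0.0869). The order of the null libraries was that of their retinal marker sums, and the reverse of that of their lens fiber marker sums. The part of retinal or fiber RNA was not tested. The call was also lost without null replicate 2 or 3 or any of wildtype replicates 1 to 4, with adjusted p up to 0.1. Nedd4, the most abundant gene that acts on receptor turnover, was at 1583 ± 31.4 CPM in null and 1743 ± 42.9 CPM in wildtype. Its groups did not overlap, and its log2 fold change of -0.14 did not pass (adjusted p = 0.476, edgeR).

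Adam10, the protease that makes the first activating cut in the receptor, was at 205, 204, 212 and 257 CPM in null and at 348, 311, 294, 320.5 and 244 CPM in wildtype. Of the null libraries only replicate 4 was above wildtype replicate 5, the lowest of its group. These were also the null library with the highest and the wildtype library with the lowest lens fiber marker sum, 94875 and 53017 CPM. The other null libraries did not follow the order of their fiber sums, and the part of fiber RNA in the Adam10 values was not tested. Its fitted change was -0.47 on the log2 scale (SE 0.13, adjusted p = 0.0459, edgeR). The adjusted p was 0.0844 to 0.138 without null replicate 1, 2 or 3 or wildtype replicate 1, 2, 3 or 4, and 0.0645 with edgeR's exactTest. Of the 10 genes for receptor cleavage, Adam10 alone was called by edgeR's quasi-likelihood test on all libraries. Furin, the convertase that cleaves the receptor precursor, was called with library size alone, without null replicate 1, and without null replicate 1 and wildtype replicate 5 together.

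Lfng, the fringe glycosyltransferase that shifts receptors towards Delta-like ligands, was at 72, 70.8, 50.6 and 80.5 CPM in null and at 61.1, 36.9, 40.3, 46.8 and 33 CPM in wildtype. It did not pass (log2 fold change 0.65, adjusted p = 0.0695, edgeR), and edgeR's quasi-likelihood test called 0 of 8 glycosylation genes. DESeq2 called Lfng and Eogt, and Lfng was also called by edgeR's exactTest, with library size alone, with no filter on low counts and without null replicate 3 or wildtype replicate 1. Mib1, which ubiquitinates ligands so that they can pull, was at 312 ± 8.8 CPM in null and 284 ± 25.8 CPM in wildtype (log2 fold change 0.14, adjusted p = 0.54, edgeR). No gene for ligand ubiquitination, of 4, was called.

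The endothelial receptor Notch4 was at 30.5 ± 13.6 CPM in null and 35.4 ± 8.99 CPM in wildtype (adjusted p = 0.761, edgeR). The endothelial ligand Dll4 was at 24.6 ± 14.1 CPM in null and 31.7 ± 8.68 CPM in wildtype (adjusted p = 0.672, edgeR). In wildtype alone the ligand Dlk1 had the higher mean, which rests on replicate 5 at 335 CPM. The other 4 wildtype libraries were at 2.18 to 7.41 CPM, each below every wildtype library of Dll4 when compared per length, and Dlk1 was at 1.86 to 8.64 CPM in null (adjusted p = 0.129, edgeR). It was called by edgeR's exactTest and with no filter on low counts. Among further targets, 4 of 7 were tested and edgeR's quasi-likelihood test called 0. The one with the highest mean over all libraries, Hes6, a relative of Hes1 expressed in differentiating neurons, was at 52.9, 31.8, 62.9 and 21.5 CPM in null and at 20.5, 21, 18, 24.9 and 37.9 CPM in wildtype (log2 fold change 0.79, adjusted p = 0.156, edgeR). It was called without null replicate 4 and without wildtype replicate 5. In wildtype alone Nrarp, a feedback inhibitor of Notch, had a higher level per length than Hes6, which was at 8.51 FPKM, and its log2 fold change was -0.15 (adjusted p = 0.874, edgeR).

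**Figure D5:**
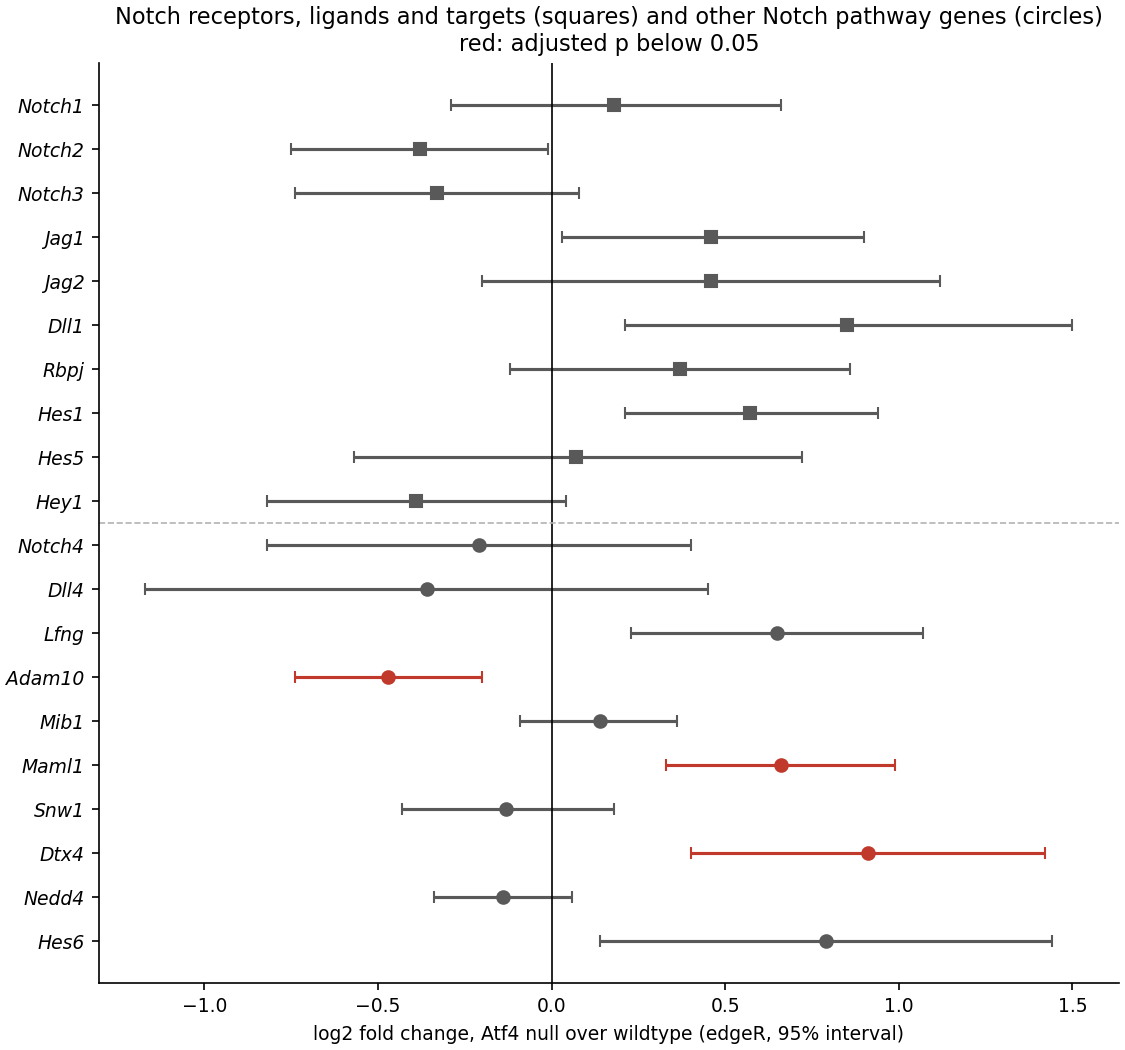
Log2 fold change of Atf4 null over wildtype with its 95% interval from edgeR for the 10 Notch genes (squares) and 10 other pathway genes, those called and the most abundant of each role described (circles), with red for an adjusted p below 0.05. Red appears only for Adam10 at -0.47, Maml1 at 0.66 and Dtx4 at 0.91.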

How the data were processed

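RNA of single lens pairs was made into libraries with the SMARTer Stranded Pico v2 kit and sequenced. Per the labels and the study's methods, the authors trimmed reads with Trim Galore, removed ribosomal reads with HISAT2, aligned to GRCm39 and counted reads per Ensembl gene with HTSeq (versions not given in the sources used here). The deposited values are raw counts, with multi-mapped and ambiguous reads left out. Summary entries that name no gene (44.6% to 47.7% of reads) were set aside here. Symbols and exon lengths came from GENCODE vM39.

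Genes were filtered with filterByExpr, scaled by TMM and tested with glmQLFit and glmQLFTest in edgeR 4.0.16 (R 4.3.3), all 4 null against all 5 wildtype libraries, with Benjamini-Hochberg adjustment at 0.05. Intervals are 95%. Permutation tests used mean log2 CPM with a prior count of 2. Alternatives were DESeq2 1.42.0, edgeR's exactTest, other scalings and filters, a robust fit, a replicate block and leaving out each library. Scripts were tested on simulated data. No library repeated another: chi-square over degrees of freedom was 7.74 or more in all 36 pairs. Wildtype titles and count tables name different libraries, so which wildtype library bears which replicate number is uncertain. The labels and the methods name different RNA isolation kits.

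The genes and all lists were chosen with earlier results of these data known. Pathway genes were named if called or the most abundant of their role per length, and 1 role is not reported here. Marker lists covered neural retina, endothelium, pericytes, macrophages, pigment cells, skeletal muscle, mesenchyme, surface ectoderm, blood, lens epithelium and lens fiber.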

Additional observations from a re-analysis of the deposited data

Results flagged for a closer look

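In groups of 4 or 5 libraries, the highest or lowest value was compared with its neighbour by Dixon's gap over range in 64 groups of values, and 10 stood apart, where chance alone singles out about 5% of groups. Null replicate 4 was the library set apart for Notch2, at 69.2 CPM against 107 to 114 CPM in the other null libraries. It was set apart for Dll1 too, at 13.5 CPM against 40.1 to 42.8 CPM. For Adam10 it was the highest null library, at 257 CPM against 204 to 212 CPM, and its summed lens epithelium markers were 791 CPM against 1047 to 1098 CPM.

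Wildtype replicate 5 was set apart for tissue markers. Its summed skeletal muscle markers were 4325 CPM against 15.8 to 28.6 CPM, mesenchyme markers 14223 CPM against 40.8 to 92.3 CPM, pigment cell markers 141 CPM against 20.2 to 42.1 CPM, and surface ectoderm markers 22.3 CPM against 0.128 to 2.53 CPM in the other wildtype libraries. Its lens epithelium markers summed to 1239 CPM against 1577 to 1702 CPM, and its lens fiber markers to 53017 CPM against 90581 to 96871 CPM.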

How the results depend on the processing

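Over 18 alternatives, the log2 fold change kept its sign for Notch2, Notch3, Jag1, Jag2, Dll1, Rbpj, Hes1 and Hey1, and not for Notch1 and Hes5. Of the 10 Notch genes, none passed in edgeR's exactTest, with either other filter, the robust fit or TMM without crystallins. DESeq2 called 1 (Hes1), library size alone 2 (Hes1 and Jag1), and leaving out null replicate 1 and wildtype replicate 5 together, chosen after the data were seen, 2 (Jag1 and Jag2). Leaving out 1 library gave 0 to 2, with Dll1 and Hes1 (adjusted p = 0.0215) called without null replicate 4 and Jag2 without wildtype replicate 5. Of the pathway list, DESeq2, library size alone and no filter on low counts each called 5, and leaving out 1 library gave 0 to 4, with 0 without null replicate 2, wildtype replicate 2 or wildtype replicate 3 and 1 without wildtype replicate 4. Over all genes, 880 calls became 1397 with DESeq2, 1339 without both libraries, and 527 to 1207 without 1 library; the lowest was without null replicate 2, and those without null replicate 3 and wildtype replicates 2 and 3 were 562, 570 and 562. Library size alone moved the median log2 fold change of all genes to 0.125 and the share of calls that were higher from 37.8% to 64.3%. The log2 fold change of Notch1 was -0.02 without both libraries and -0.06 to 0.39 without 1, with exact permutation p of 0.089 to 0.98. That of Hes5 was -0.40 without both libraries and -0.31 to 0.27 without 1, with exact permutation p of 0.3 to 1.0. The cause of these shifts was not tested.

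With the replicate number as a block, edgeR called 852 genes, 0 of the 10 Notch genes and, from the pathway list, Maml1 and Adam10 but not Dtx4, and the log2 fold change of Hes5 was -0.12. Wildtype replicate 5 has no null library of its number, so the block fit leaves it out of the contrast. Same-numbered libraries did not deviate together (correlations of -0.131 to 0.008 over 4 pairs, 0 of 4 best with their own number). Because the wildtype replicate numbers are uncertain, neither the correlations nor the block can show whether true pairs deviate together. The fewest reads in a library were 75 for Jag2, 88 for Hes5 and 93 for Dll1.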

Other observations

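Levels relative to the marker sums were computed after the values were seen and are given as descriptions, with no test. Per 100 CPM of summed lens fiber markers, Jag1 was at 1.02, 0.988, 0.967 and 0.885 CPM in null replicates 1 to 4 and at 0.573, 0.518, 0.484, 0.472 and 0.545 CPM in wildtype replicates 1 to 5. The genotypes did not overlap on this scale, although they did in CPM. Taken against single fiber genes, Jag1 separated the genotypes for 12 of the 13 genes with reads in every library, out of 15 listed, and the exception was Sox1. Of the fiber genes tested, 12 of 14 were fitted lower in null lenses and 5 passed, so the ratio moves with its denominator as well as with Jag1.

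Per 100 CPM of summed neural retina markers, Dll1 was at 3.49 to 6.34 CPM in null and 4.28 to 7.9 CPM in wildtype, and Hes1 at 5.39 to 9.5 and 8.8 to 11.6 CPM, so both overlapped. Per 100 CPM of summed lens epithelium markers the same genes were higher in every null library, Dll1 at 1.71 to 3.9 CPM in null and 0.936 to 1.48 CPM in wildtype, and Hes1 at 4.52 to 5.98 and 1.87 to 2.49 CPM. Hes1 was also higher in every null library per 100 CPM of endothelium markers (8.39 to 14.5 against 3.46 to 6.48 CPM) and of pericyte markers (19.9 to 29.3 against 4.53 to 14.5 CPM), as was Rbpj (13.8 to 23.3 against 6.95 to 11.8 CPM, and 34.1 to 46.9 against 12.4 to 26.2 CPM). Other genes did the same. On the lens epithelium scale Jag1 (38.9 to 106 against 23.3 to 35.2 CPM), Dll3 and Dtx4 were also higher in every null library. On the endothelium and pericyte scales so were Jag2, Hes6 and Dtx4, and on the pericyte scale Dll3. Whether the genotypes separated thus depended on the markers chosen as the denominator. On the retinal scale, Hes5 was at 2.89 to 3.43 CPM in null and 4.35 to 11.4 CPM in wildtype, and Notch1 at 29.4 to 35.0 and 50.8 to 73.2 CPM. Notch2, at 9.44 to 18.3 CPM in null and 26.8 to 50.7 CPM in wildtype, and Notch3, at 7.82 to 19.1 and 27.4 to 50.6 CPM, did not overlap either, nor did Notch4 and Dll4, all lower in null. The retinal sum was above every wildtype library in 3 of 4 null libraries and the lens epithelium sum below every wildtype library in all 4, so these ratios also move with their denominators.

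Markers of lens epithelium, whose cells receive the Jag1 signal, summed to 791 to 1098 CPM in null and 1239 to 1702 CPM in wildtype without overlap. Of the 6, 5 were fitted lower in null lenses and 4 passed (Foxe3, Cdh1, Pdgfra and Gja1). Pax6, the most abundant, was at 499 ± 62.2 CPM in null and 521 ± 91.6 CPM in wildtype (log2 fold change -0.06, adjusted p = 0.89, edgeR). The 1 fitted higher had a log2 fold change of 0.31. Whether the sum reflects fewer epithelial cells was not tested.

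Other marker sums overlapped between genotypes. Macrophage markers summed to 99.3 to 129 CPM in null and 96.5 to 111 CPM in wildtype (0 of 9 called by edgeR), and blood cell markers to 180.3 to 245 and 224 to 737 CPM (all 6 tested fitted lower in null, 1 called). In the null libraries pigment cell markers summed to 43.1 to 109 CPM, skeletal muscle markers to 13.2 to 44.7 CPM and surface ectoderm markers to 1.75 to 4.68 CPM. Mesenchyme markers summed to 208 to 542 CPM in null. For both mesenchyme and pigment cells, every null library was above every wildtype library other than replicate 5.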
